A study of Mus musculus with 4 samples.

Results

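The genes described here make the red blood cell: its hemoglobin chains, its heme, its membrane and the nuclear factors that direct its formation. The set held 30 genes named in a fixed list, matched by gene symbol, and all 30 had a row in the deposited table of 24532 genes. No member was listed at 0 in any of the 4 libraries. Measured values were not used to pick single members, but the list was drawn up with earlier results of these data known.

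Red blood cells arise in the bone marrow from precursors that divide, fill with hemoglobin and expel the nucleus, after which the cell circulates with the RNA it has left. Hemoglobin is built of alpha and beta globin chains, each holding a heme group, and heme is made by a chain of enzymes that starts with Alas2 in erythroid cells and ends with Fech inserting the iron. Precursors import iron through the transferrin receptor Tfrc and depend on erythropoietin, whose receptor is Epor. Articular cartilage has no blood vessels of its own and rests on subchondral bone.

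The libraries came from knee cartilage of wild type C57BL/6 male mice, sequenced from poly(A) RNA. The young sham and young injured groups were 3 weeks old. The adult sham and adult injured groups were 10 weeks old in the study's methods, while their labels gave 12 weeks in the title and 14 weeks in the age field. Injured cartilage was taken 3 days after a full-thickness cartilage injury (FTCI) made with a needle in the groove of the left femur, although the labels named the surgery DMM, another operation on the knee. The young sham was collected at day 3 and the adult sham at days 3 to 14, by the labels. Each library was a pool, of 10 injured mice or of 5 uninjured mice, so each group had 1 library and no difference given here has a replicate check. No p-value can therefore be given, and a difference was called when the ratio of FPKM + 1 (FPKM, fragments per kilobase of transcript, scaled to the mapped fragments of the library) was at least 2-fold. On that scale the fold of a gene near or below 1 FPKM is understated, and plain ratios of FPKM are named as such or given as folds.

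The 8 chondrocyte markers (Col2a1, Acan, Sox9 and others) were at 1 FPKM or more in every library, as the cell type label says, and summed to 15353, 13202, 11058 and 9770.4 FPKM in the young sham, then the young injured, then the adult sham and last the adult injured library. They also differed with age, with 5 of 8 at least 2-fold lower and 1 higher in adult than in young sham (median log2 ratio -1.71), and 4 of 8 were at least 2-fold higher after adult injury. The shares of all genes were 10.6% and 2.66% in the sham pair and 6.90% after adult injury. Spacing of the low values pointed to about 25700000 to 30800000 fragments a library, but only 40.9% to 42.4% of low values fell within 0.1 of a whole step, so counts were not recovered and this depth is an estimate. At that depth the lowest member, Trim58, rested on about 64.3, 76.7, 5.97 and 4 fragments in the same order of libraries, which all values below follow.

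**Figure D1:**
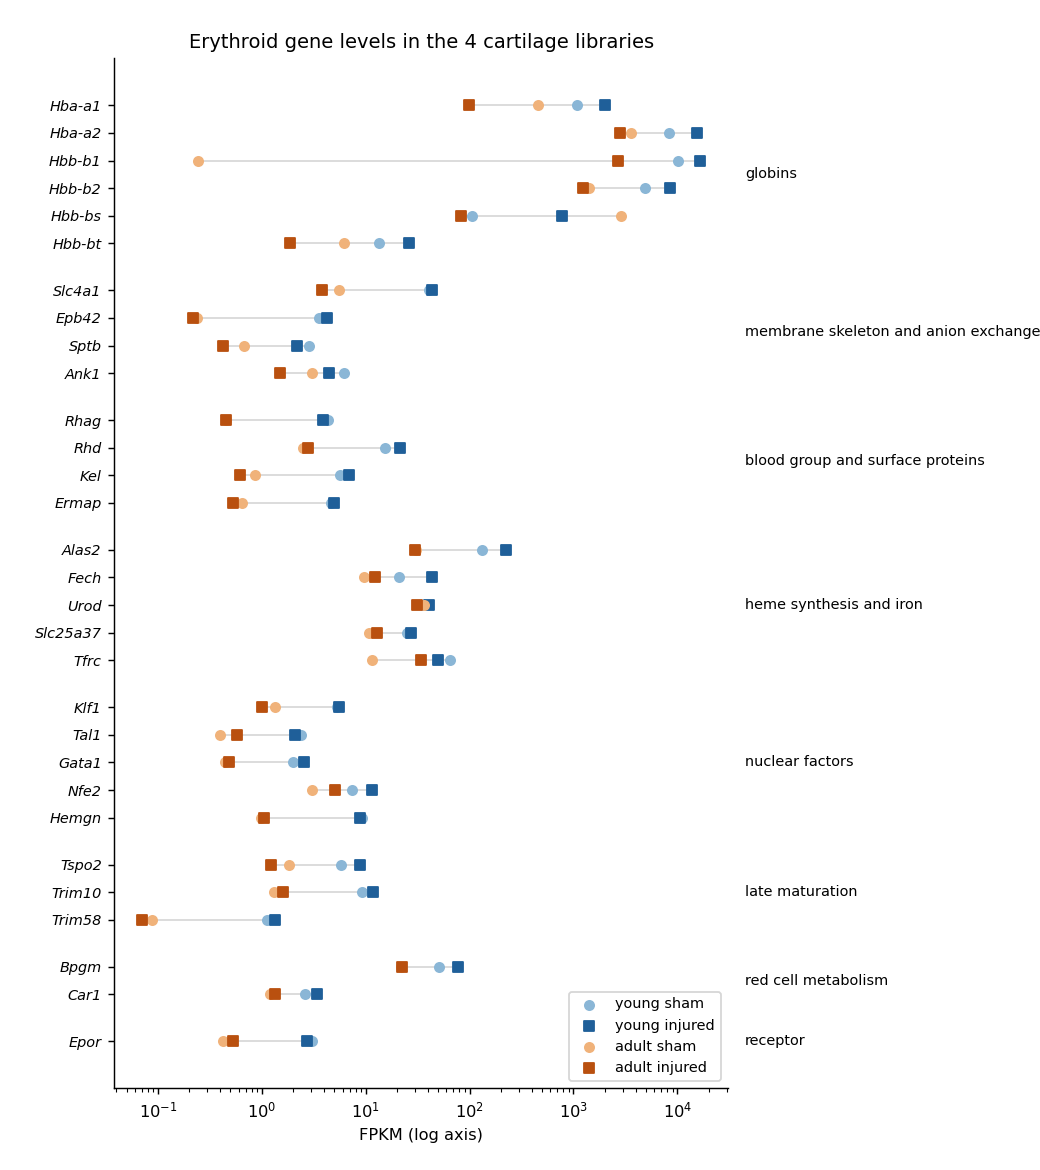
FPKM on a log axis of the 30 erythroid genes, grouped by role, with 1 point for each of the 4 libraries (circles, sham; squares, injured; blue, young; orange, adult). Both young libraries lay above both adult libraries for 28 of the 30 genes, against 36.1% of all genes, the exceptions being Hbb-bs and Urod.

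The members with coordinates, 28 of the 30, were spread over 15 chromosomes of the mouse build GRCm38.p6, and the alpha globin copies were neighbours on chromosome 11. Promoter windows were printed for the globin copies, for Alas2 and Klf1 as a heme and a transcription factor gene, and for Epb42, which had the widest ratio between young and adult libraries outside the globins. Each is the 200 bases before the gene's start, from RefSeq, read 5′ to 3′ on the gene's strand. Capitals mark 3 motifs on either strand: GATA-type (GATA with A or T before it and A or G after it), CACCC-like (CCNCNCCC, N any base) and CCAAT.
Hba-a1, chr11:32283472-32283671, plus strand: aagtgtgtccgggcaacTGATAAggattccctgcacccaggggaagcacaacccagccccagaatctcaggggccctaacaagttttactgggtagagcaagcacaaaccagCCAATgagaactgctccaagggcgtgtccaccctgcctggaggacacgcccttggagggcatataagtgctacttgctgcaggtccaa
Hba-a2, chr11:32296292-32296491, plus strand: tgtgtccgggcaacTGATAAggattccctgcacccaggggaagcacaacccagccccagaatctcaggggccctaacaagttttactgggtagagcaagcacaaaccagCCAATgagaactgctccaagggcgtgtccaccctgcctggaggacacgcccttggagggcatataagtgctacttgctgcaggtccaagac
Hbb-bs, chr7:103827929-103828128, minus strand: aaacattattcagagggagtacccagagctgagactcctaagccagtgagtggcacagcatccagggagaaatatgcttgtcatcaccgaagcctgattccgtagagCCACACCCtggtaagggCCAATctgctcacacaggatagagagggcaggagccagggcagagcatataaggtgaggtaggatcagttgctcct
Hbb-bt, chr7:103813924-103814123, minus strand: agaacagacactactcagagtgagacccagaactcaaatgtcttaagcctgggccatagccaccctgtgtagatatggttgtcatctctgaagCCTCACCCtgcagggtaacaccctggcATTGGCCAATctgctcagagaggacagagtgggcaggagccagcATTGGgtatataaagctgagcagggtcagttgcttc
Alas2, chrX:150547217-150547416, plus strand: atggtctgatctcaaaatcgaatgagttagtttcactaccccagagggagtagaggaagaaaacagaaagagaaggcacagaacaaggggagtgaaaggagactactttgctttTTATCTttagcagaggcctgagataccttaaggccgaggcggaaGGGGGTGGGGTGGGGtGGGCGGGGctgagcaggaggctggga
Klf1, chr8:84901782-84901981, plus strand: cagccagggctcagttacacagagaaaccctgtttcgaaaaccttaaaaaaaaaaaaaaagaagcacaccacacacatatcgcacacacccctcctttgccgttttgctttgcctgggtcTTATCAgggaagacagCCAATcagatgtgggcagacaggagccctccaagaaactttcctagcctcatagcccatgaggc
Epb42, chr2:121036878-121037077, minus strand: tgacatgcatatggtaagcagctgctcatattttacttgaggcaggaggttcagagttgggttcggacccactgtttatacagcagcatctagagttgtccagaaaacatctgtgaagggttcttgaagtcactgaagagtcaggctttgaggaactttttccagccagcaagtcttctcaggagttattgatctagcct

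The windows of the alpha copies shared an unbroken run of 197 bases, and each held a GATA-type and a CCAAT motif. Those of Hbb-bs and Hbb-bt shared a run of no more than 14 bases, and both held a CACCC-like motif upstream of a CCAAT motif. In Alas2 a GATA-type motif lay at bases -86 to -81 from the start and 4 CACCC-like matches, some overlapping, at bases -42 to -19. In Klf1 a GATA-type motif lay at bases -80 to -75, and the Epb42 window held none of the 3 motifs. Across the 22 members whose windows were searched, a GATA-type motif was found in 11, or 50.0%, against 24.2% of the 27025 genes with a RefSeq window. The search of members left out chromosome 18, where Fech lies, and that of all genes did not. The near-identical alpha windows were counted separately. CACCC-like motifs were found in 50.0% of the members and 45.2% of all genes, and CCAAT in 50.0% and 32.7%. These matches are a description of letters, not of bound sites.

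Globins were the most abundant members by far. The 6 globin rows took 4.95%, 8.10%, 1.66% and 1.47% of the FPKM of all genes. The alpha globin copies Hba-a1 (chr11:32283672-32284486) and Hba-a2 (chr11:32296492-32297310) summed to 9365, 17345, 4042 and 2910 FPKM. The beta globin rows Hbb-b1, Hbb-b2, Hbb-bs (chr7:103826523-103827928) and Hbb-bt (chr7:103812524-103813923) summed to 15006, 25845, 4282 and 3996 FPKM. Both sums were thus highest in injured young cartilage and lowest in injured adult cartilage. In bulk tissue, fewer erythroid cells and less erythroid RNA per cell cannot be told apart.

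The rows of the sums did not all share their pattern. Hba-a2 was at 8272, 15321, 3584 and 2811 FPKM, and Hba-a1 at 1092, 2023, 458 and 99.1 FPKM. The first copy held 11.7%, 11.7%, 11.3% and 3.41% of the alpha sum, so its share was lower in the adult injured library alone. Of the 31-base words of their transcripts, 75.5% of those of Hba-a1 also occur in another gene, as do 92.6% of those of Hba-a2, so reads of the pair can be split either way.

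The beta rows divided in another way in the adult sham library. Hbb-b1 was at 10051, 16558, 0.244 and 2676 FPKM, close to absent from the adult sham library only. Hbb-bs was at 106, 783, 2868 and 83.4 FPKM, highest in that same library. Hbb-b1 held 67.0%, 64.1%, 0.00571% and 67.0% of the beta sum, and Hbb-bs held 0.704%, 3.03%, 67.0% and 2.09%. Added together, a sum chosen after the values were seen, these rows held 67.7%, 67.1%, 67.0% and 69.0% of the beta sum, with 10156.5, 17340.5, 2868 and 2759 FPKM. The combined share thus stayed between 67.0% and 69.0% while its division between the rows differed almost completely in 1 library. C57BL/6 mice carry the haplotype whose adult beta genes are named Hbb-bs and Hbb-bt, and Hbb-b1 and Hbb-b2 are the names of the adult beta genes of another haplotype. How the rows divide the reads was not tested, and the folds of single globin rows are therefore uncertain.

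Of the remaining beta rows, Hbb-b2 kept a steadier share and Hbb-bt did not. Hbb-b2 was at 4836, 8478, 1407 and 1235 FPKM, which was 32.2%, 32.8%, 32.9% and 30.9% of the beta sum. Hbb-bt was at 13.3, 26.1, 6.24 and 1.89 FPKM, which was 0.0889%, 0.101%, 0.146% and 0.0473% of the beta sum. Of the 31-base words of Hbb-bs and Hbb-bt, 54.4% and 59.4% also occur in another gene, mostly in the other of the pair. Alpha over beta stood at 0.624, 0.671, 0.944 and 0.728, so alpha was nearest to beta in the adult sham library.

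**Figure D2:**
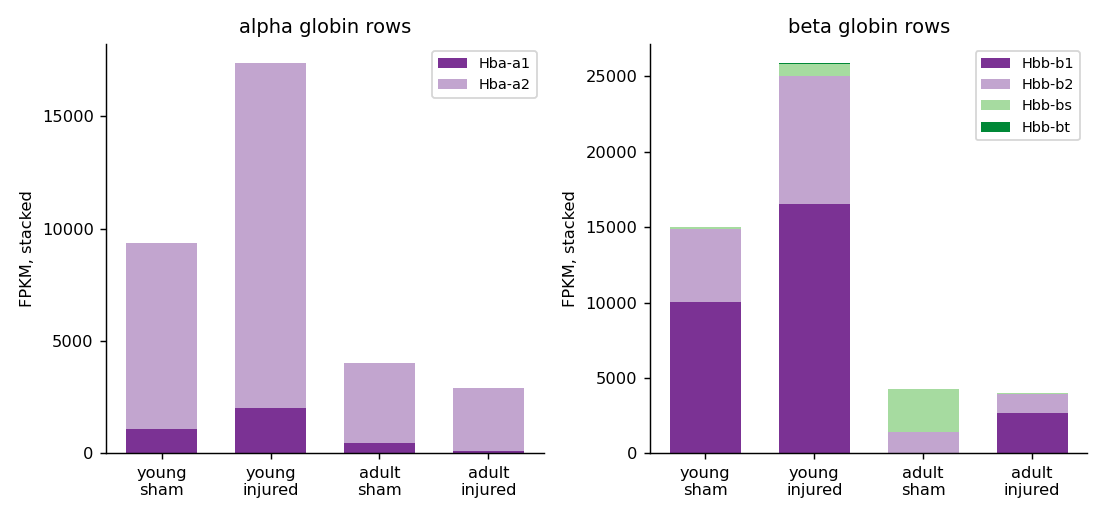
Stacked FPKM, on linear axes from 0, of the alpha globin rows (left) and the beta globin rows (right) in each library. Bar heights are the sums of 9365, 17345, 4042 and 2910 FPKM for alpha and 15006, 25845, 4282 and 3996 FPKM for beta, and in adult sham the share drawn as Hbb-b1 in the other libraries is drawn as Hbb-bs.

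On the FPKM + 1 scale, 3 of the 4 membrane skeleton genes were at least 2-fold lower in adult than in young sham. The exception was Ank1 (log2 ratio -0.83), and 10.6% of all genes were lower by as much. Slc4a1, the anion exchanger that anchors the skeleton to the membrane, was at 40.6, 43.4, 5.59 and 3.80 FPKM. Epb42, which links the exchanger to ankyrin, was at 3.57, 4.30, 0.237 and 0.220 FPKM. Young values of both exceeded adult ones without overlap, as those of 36.1% of all genes did, by 7.26-fold and 15.1-fold between the sham libraries. Sptb, erythroid beta spectrin, was at 2.87, 2.20, 0.671 and 0.425 FPKM. Ank1, erythroid ankyrin, which other tissues also express, was at 6.23, 4.42, 3.08 and 1.52 FPKM. Ank1 showed the narrowest young over adult ratio of these genes, 2.02-fold between the sham and 2.91-fold between the injured libraries.

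Blood group and surface proteins were lower in both adult libraries than in both young ones, an order that 36.1% of all genes had. Rhag, the Rh-associated ammonium channel, was at 4.36, 3.90, 0.458 and 0.455 FPKM. Rhd, the Rh antigen, was at 15.4, 21.2, 2.50 and 2.82 FPKM. Kel, the protease that carries the Kell antigens, was at 5.63, 6.90, 0.867 and 0.622 FPKM. Ermap, an erythroid membrane protein of the butyrophilin-like family, was at 4.63, 4.93, 0.643 and 0.534 FPKM. The 4 ratios of young over adult sham spanned 6.18-fold (Rhd) to 9.52-fold (Rhag), and those of the injured pair 7.53-fold (Rhd) to 11.1-fold (Kel).

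Heme and iron genes had young over adult sham ratios from 0.995 (Urod) to 5.71 (Tfrc). Alas2, the erythroid first enzyme of heme synthesis, was at 133, 222, 30.5 and 29.8 FPKM and had the highest level outside the globins in both young libraries. Fech, the ferrochelatase, was at 21.0, 43.8, 9.66 and 12.3 FPKM. Urod, an enzyme of the middle of the pathway found in most cells, was at 36.1, 41.2, 36.2 and 31.03 FPKM. Urod thus differed little between any libraries, by 1.33-fold at most between young and adult. Slc25a37, mitoferrin, which brings iron into the mitochondrion, was at 24.97, 27.5, 10.7 and 12.8 FPKM. Tfrc, which dividing cells of many kinds use for iron uptake, was at 65.2, 49.7, 11.4 and 34.5 FPKM. Tfrc was thus lowest in the adult sham library and intermediate in the adult injured one.

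Nuclear factors were low in level. They were higher in both young libraries than in both adult ones, an order that 36.1% of all genes had. Klf1, the erythroid factor that activates beta globin, was at 5.25, 5.52, 1.33 and 1.01 FPKM. Gata1, the central factor of the erythroid and megakaryocyte lineages, was at 2.0, 2.53, 0.443 and 0.489 FPKM. Tal1, a factor of blood-forming cells that endothelium also expresses, was at 2.38, 2.07, 0.394 and 0.576 FPKM. All 3 were above 1 FPKM in both young libraries, and of these Klf1 alone was above 1 FPKM in the adult ones. Hemgn, hemogen, a nuclear protein of erythroid cells, was at 9.28, 8.81, 0.988 and 1.06 FPKM. Nfe2, a factor that megakaryocytes and neutrophils also express, was at 7.38, 11.5, 3.04 and 5.11 FPKM and had the smallest young over adult ratios of the group, 2.43-fold and 2.25-fold.

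Genes of late maturation, of red cell metabolism and the erythropoietin receptor completed the set. Tspo2, a cholesterol-binding protein of erythroid cells, was at 5.84, 8.88, 1.84 and 1.23 FPKM. Trim10, a tripartite-motif protein of terminal erythroid differentiation, was at 9.18, 11.7, 1.3 and 1.61 FPKM. Trim58, a ubiquitin ligase of the enucleating erythroblast, was at 1.11, 1.34, 0.0885 and 0.0709 FPKM, which was close to undetected in adults at the estimated depth. Bpgm, which makes the phosphate compound that lowers the oxygen affinity of hemoglobin, was at 51.3, 77.5, 21.7 and 22.2 FPKM. Car1, a carbonic anhydrase, was at 2.61, 3.38, 1.20 and 1.34 FPKM, and 20.1% of its 31-base words occur in another gene. Epor was at 3.03, 2.70, 0.421 and 0.530 FPKM, so the receptor was above 1 FPKM in the young libraries only.

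Between sham libraries, 24 of the 30 members were at least 2-fold lower in the adult on the FPKM + 1 scale and 1, Hbb-bs, was higher, against 10.6% and 2.66% (13.3% together) of the 18181 genes above 0 in at least 1 library. The median log2 ratio of adult over young was -1.27 for the members and -0.15 for all genes. Not past 2-fold on this scale were Hbb-bt (-0.99), Trim58 (-0.96), Ank1 (-0.83), Car1 (-0.71) and Urod (0.01), although the plain ratio of young over adult was 12.6 for Trim58, 2.14 for Hbb-bt, 2.02 for Ank1 and 2.17 for Car1. When libraries were scaled by median of ratios, which moved the median of the 10891 genes at 1 FPKM or more in all libraries from -0.30 to 0.02, 16 members were lower and 1 higher, against 5.55% and 5.35% of all genes. The adult sham library also differed in its labelled collection days, which cannot be told apart from age.

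Between injured libraries, which share no library with the sham pair, 26 of the 30 members were at least 2-fold higher in the young and 0 were lower, against 3.09% and 1.80% of all genes (4.89% together). All 30 were higher in the young, also under each of the 4 other scalings tried, and the median log2 ratio of young over adult was 1.85 against 0.04 for all genes. Tal1 (0.96, plain ratio 3.59), Car1 (0.91, plain ratio 2.53), Tfrc (0.52, plain ratio 1.44) and Urod (0.40, plain ratio 1.33) did not pass 2-fold. With a pseudocount of 5 in place of 1, which lowers the ratios of low genes, 15 members passed in the injured pair and 12 in the sham pair. The alpha sum was 5.96-fold and the beta sum 6.47-fold higher in the young injured library, against 2.32-fold and 3.50-fold in the sham pair. Scaled by median of ratios, the alpha sum no longer passed 2-fold in the sham pair (log2 ratio of adult over young -0.82).

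Both young libraries lay above both adult ones for 28 of the 30 members, against 36.1% of all genes, and 22 members were at least 2-fold lower in the adult in both pairs, against 2.17% of all genes. Hbb-bs and Urod were the exceptions to the first count. The 14 members that belong to the red cell lineage and are not globins were all higher in both young libraries. Their median ratio of young over adult was 6.76-fold in the sham pair, from 2.17 (Car1) to 15.1 (Epb42), and 7.94-fold in the injured pair, from 2.53 (Car1) to 19.5 (Epb42). The summed level of the 14 was 243, 349, 48.0 and 45.0 FPKM. The 10 members that other cell types also express had a median ratio of 2.40 in the sham pair, from 0.995 (Urod) to 7.20 (Epor), and of 3.20 in the injured pair, from 1.33 (Urod) to 5.18 (Sptb), so the ranges of both subsets overlapped. Their summed level was 220.4, 263, 97.4 and 121 FPKM.

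**Figure D3:**
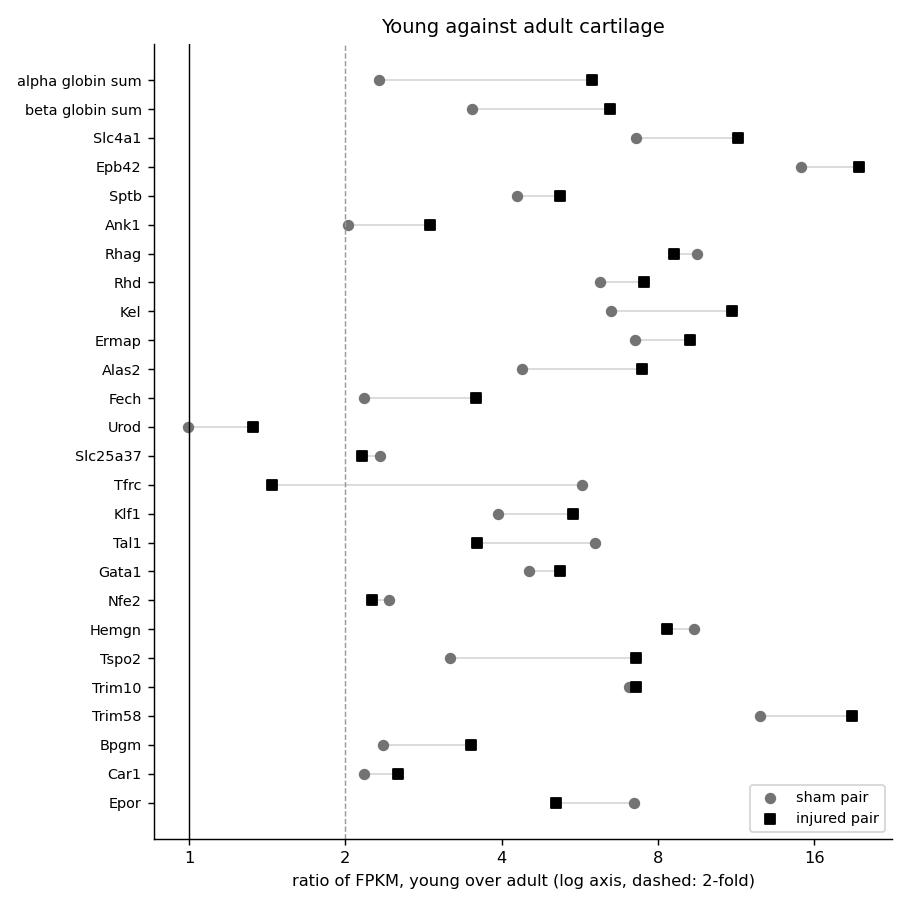
Ratio of FPKM, young over adult, on a log axis for the globin sums and the 24 other members, in the sham pair (grey circles) and the injured pair (black squares), with 2-fold dashed. Only Urod in both pairs and Tfrc in the injured pair lay left of the dashed line, and Epb42 lay farthest right in both pairs, at 15.1 and 19.5.

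Markers of other cell types also differed with age, beside those of chondrocytes given above. The 8 B cell markers summed to 58.4, 83.3, 14.8 and 21.4 FPKM, with 7 of 8 at least 2-fold lower in adult sham and 6 of 8 higher in young injured cartilage. The 8 proliferation genes summed to 78.3, 177, 13.2 and 48.9 FPKM, with 8 of 8 lower in adult sham and 7 of 8 higher in young injured cartilage. Of all genes, 10.6% were at least 2-fold lower in adult sham and 3.09% higher in young injured cartilage. The 12 neutrophil markers summed to 1309, 3158, 1730.0 and 4102 FPKM. In the sham pair 8 of 12 had the higher value in the adult, 1 of them past 2-fold. In the injured pair 7 of 12 had the higher value in the young, and the 2 past 2-fold were higher in the adult. No marker of these lists was at 0 in all libraries. Whether the erythroid RNA came from marrow, blood or another source was not tested, nor was the part of other cells in the erythroid levels.

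Injury at 3 days moved few members in young cartilage. Only Hbb-bs and Fech were at least 2-fold higher, and 0 were lower, against 4.57% and 1.27% of all genes (5.83% together), so the members' share was near that of the table. Fech was close to the threshold, with a log2 ratio of 1.02 and a plain ratio of 2.08, and missed it under 3 of the 4 other scalings. The members' median was 0.24, with 23 above and 7 below 0 (20 and 10 when libraries were rescaled to equal sums), beside 0.00 for all genes. Globin sums were higher after injury, alpha by 1.85-fold and beta by 1.72-fold, and did not pass 2-fold. Alas2 (0.73), Bpgm (0.59), Nfe2 (0.57) and Tspo2 (0.53) came next among the log2 ratios, while Ank1 (-0.42) and Tfrc (-0.38) were the lowest.

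In adult cartilage the members past 2-fold were mostly globin rows whose reads may be shared. Hbb-b1 and Tfrc were higher after injury and Hba-a1, Hbb-bs and Hbb-bt lower, against 6.90% of all genes higher and 1.46% lower (8.37% together). With the rows summed, the alpha ratio was 0.720 and the beta ratio 0.933, the latter turning to a log2 ratio of 0.10 from -0.10 under quantile normalization, and Tfrc was left as the only member past 2-fold, with a plain ratio of 3.02 and a log2 ratio of 1.51. The proliferation genes were higher in the same comparison, 6 of 8 past 2-fold, as were 8 of 8 macrophage markers, and their part in the Tfrc level was not tested. The members' median was -0.02, with 13 above and 17 below 0, beside 0.14 for all genes. Scaling by median of ratios gave 7 above and 23 below 0, and the sign of 12 members turned under at least 1 scaling, Alas2, Gata1 and Epor among them.

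The 14 lineage members that are not globins showed 0 past 2-fold after injury at either age, where 5.83% (young) and 8.37% (adult) of all genes passed and few of 14 genes would at that share, with log2 ratios from -0.13 (Rhag) to 0.73 (Alas2) in the young and from -0.46 (Slc4a1) to 0.18 (Trim10) in the adult. With age, 12 of the 14 passed 2-fold in the sham pair and 13 of the 14 in the injured pair, against 13.3% and 4.89% of all genes. Each injury comparison shares its libraries with both age comparisons.

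**Figure D4:**
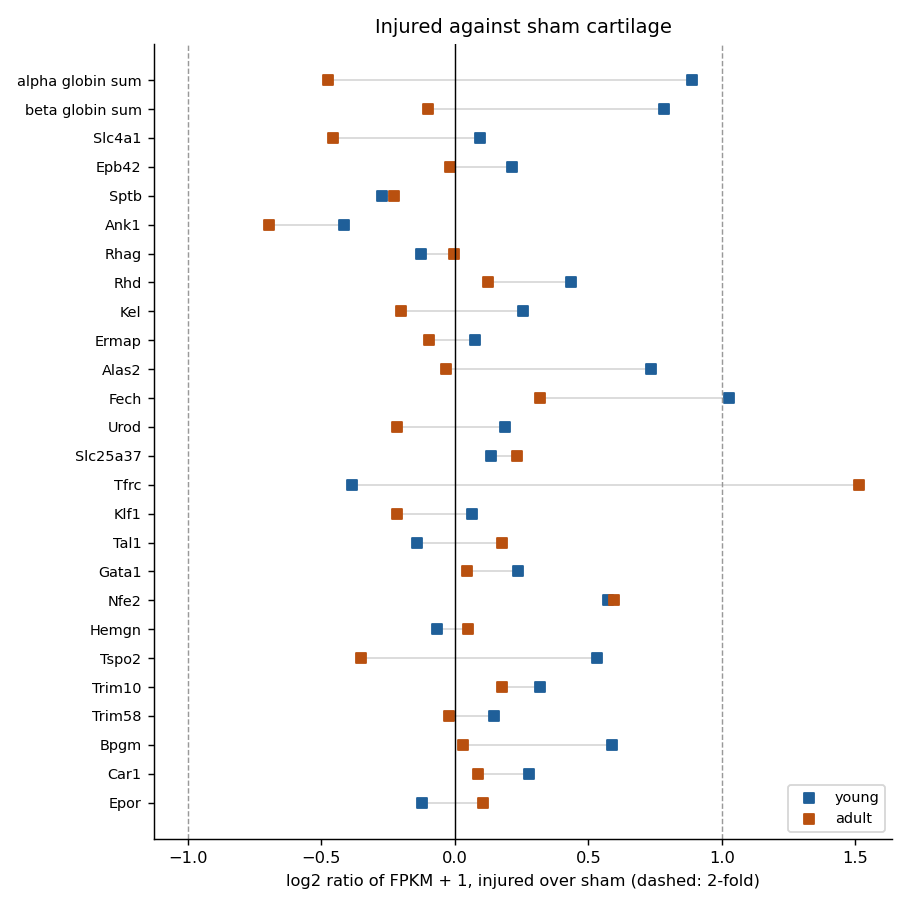
Log2 ratio of FPKM + 1, injured over sham, for the globin sums and the 24 other members in young (blue) and adult (orange) cartilage, with 2-fold dashed. Only Fech in the young (1.02) and Tfrc in the adult (1.51) lay past a dashed line, and the globin sums were above 0 in the young and below 0 in the adult, where the beta sum turned above 0 under quantile normalization.

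Precursor genes (Gata1, Klf1, Tfrc and Epor) were set beside late genes (Slc4a1, Alas2, Epb42, Bpgm, Slc25a37, Hemgn, Tspo2, Trim10 and Trim58) to ask whether the stages differed in the same way. In the sham pair the median ratio of young over adult was 5.04-fold for the 4 precursor and 7.04-fold for the 9 late genes. In the injured pair it was 5.14-fold and 7.45-fold. Both stages were therefore higher in the young, and their ranges overlapped, from 3.94 (Klf1) to 7.20 (Epor) for precursor and from 2.33 (Slc25a37) to 15.1 (Epb42) for late genes in the sham pair. On the log2 scale of FPKM + 1 the late genes exceeded the precursor genes by 0.42 in the sham and 0.89 in the injured pair. After injury the medians lay near each other, at -0.03 (precursor) and 0.21 (late) in the young and 0.08 and -0.02 in the adult. Single genes spread more widely, the precursor genes from -0.38 (Tfrc) to 0.24 (Gata1) in the young and from -0.22 (Klf1) to 1.51 (Tfrc) in the adult. Summed FPKM, in which Tfrc and Alas2 weigh most, gave injured over sham ratios of 0.801 (precursor) and 1.45 (late) in the young. In the adult these ratios were 2.68 and 0.997. The gap of 0.42 was 0.85, and the gap of 0.10 after adult injury turned to -0.06, without the broadly expressed Tfrc, Epor, Bpgm and Slc25a37.

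Lineage genes were then set beside globin itself, which accumulates late in red cell formation. The 14 lineage members summed to 9.96, 8.08, 5.76 and 6.52 FPKM per 1000 FPKM of globin. Relative to globin, 13 of 14 were higher in young than in adult sham and 11 of 14 in young than in adult injured cartilage, against 17.2% and 6.08% of all genes. Globin itself was 2.93-fold and 6.25-fold higher in the young in these pairs. Dividing by it lowers the young over adult ratio of every gene, so these shares partly reflect the divisor. The same holds after injury, where the globin ratio was 1.77 in the young and 0.830 in the adult. After injury in the young, all 14 were lower relative to globin, as were 80.1% of all genes, and in the adult 9 of 14 were higher, against 77.8% of all genes. The young over adult ratio of these sums was 1.73 in the sham pair and 1.24 in the injured pair, where Klf1 (0.878), Gata1 (0.828) and Car1 (0.404) were lower in the young. The order depended on the genes taken. All 24 members that are not globins summed to 19.0, 14.2, 17.5 and 24.0 FPKM per 1000 FPKM of globin, lower in the young in the injured pair by a ratio of 0.589.

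Of 32 further erythroid genes listed beside the members, 31 had a row, and 12 were at least 2-fold lower and 1 at least 2-fold higher in adult than in young sham, against 10.6% and 2.66% of all genes. In the injured pair 14 were at least 2-fold higher in the young and 0 lower, against 3.09% and 1.80%. After injury 0 passed 2-fold in the young, and 2 passed upward and 2 downward in the adult, near the 5.83% and 8.37% of all genes that passed in either direction. Epb41, the skeletal protein that joins spectrin to actin, was at 13.8, 14.0, 1.12 and 5.59 FPKM, low in adult sham as Tfrc was. Aqp1, a water channel of red cells, endothelium and chondrocytes, was at 29.1, 43.5, 63.1 and 29.1 FPKM, highest in adult sham. Lmo2, a partner of Tal1, was at 7.58, 14.4, 3.72 and 9.75 FPKM, and Slc14a1, a urea transporter, at 2.05, 3.57, 0.288 and 0.526 FPKM. Mgst3, a glutathione transferase of many tissues, was at 19.4, 30.8, 31.3 and 24.9 FPKM, with no 2-fold difference.

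The globins were of the adult type. Of 6 embryonic or minor globin genes, Hbb-bh1, Hbb-bh2, Hbb-y and Hba-x were listed at 0 in all libraries. Hbq1a, a theta globin, was at 1.53, 3.76, 0.547 and 0.323 FPKM, and its copy Hbq1b at 2.78, 4.65, 0.793 and 0.536 FPKM. Both theta copies had higher values in both young libraries than in both adult ones, as most members and 36.1% of all genes did.

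The rest of the heme pathway was read from a list of its own. The 10 further heme synthesis genes summed to 188, 201, 119 and 157 FPKM. By 2-fold or more, 2 were lower in adult sham and 1 was higher in young injured cartilage, against 10.6% and 3.09% of all genes. After young injury 0 passed 2-fold and after adult injury 1 was higher, near the 5.83% and 6.90% of all genes. The 12 genes of iron handling and hemoglobin clearance summed to 1735, 3794, 3287 and 6990.4 FPKM. Of these, 4 were at least 2-fold higher after injury at each age, against 4.57% (young) and 6.90% (adult) of all genes. Hmox1, heme oxygenase, which breaks heme down, was at 8.90, 190, 6.98 and 133 FPKM, 21.3-fold and 19.0-fold higher after injury. Hp, haptoglobin, which binds free hemoglobin, was at 16.4, 45.6, 30.6 and 159 FPKM, and Ftl1, ferritin light chain, at 704, 1518, 356 and 1520 FPKM. These 3 were named for the size of their injury ratios, and all 3 passed 2-fold at both ages, Ftl1 in the young not when libraries were rescaled to equal sums. The 8 macrophage markers (189, 1866, 310.3 and 1599 FPKM) were higher beside them, 8 of 8 past 2-fold at each age.

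Remaining marker lists placed the erythroid pattern among those of other cells. The 8 endothelial markers summed to 20.8, 97.4, 24.0 and 80.7 FPKM and the 8 megakaryocyte and platelet markers to 20.4, 134, 25.2 and 79.6 FPKM, both with higher sums after injury at both ages. Of the endothelial markers 7 of 8 passed 2-fold after injury at each age, and of the platelet markers 4 of 8 in the young and 1 of 8, Pf4, in the adult. All of these were higher after injury, as were 4.57% (young) and 6.90% (adult) of all genes. Without Pf4 the platelet sum was 14.1, 42.1, 18.3 and 20.8 FPKM, 1.14-fold higher after adult injury. The 5 early progenitor genes summed to 16.3, 26.01, 8.93 and 18.4 FPKM. Muscle markers, 10 in all, summed to 888, 699, 1568 and 460.5 FPKM, so the adult sham library also held the most muscle RNA. What part these cell types had in the erythroid values was not tested.

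**Figure D5:**
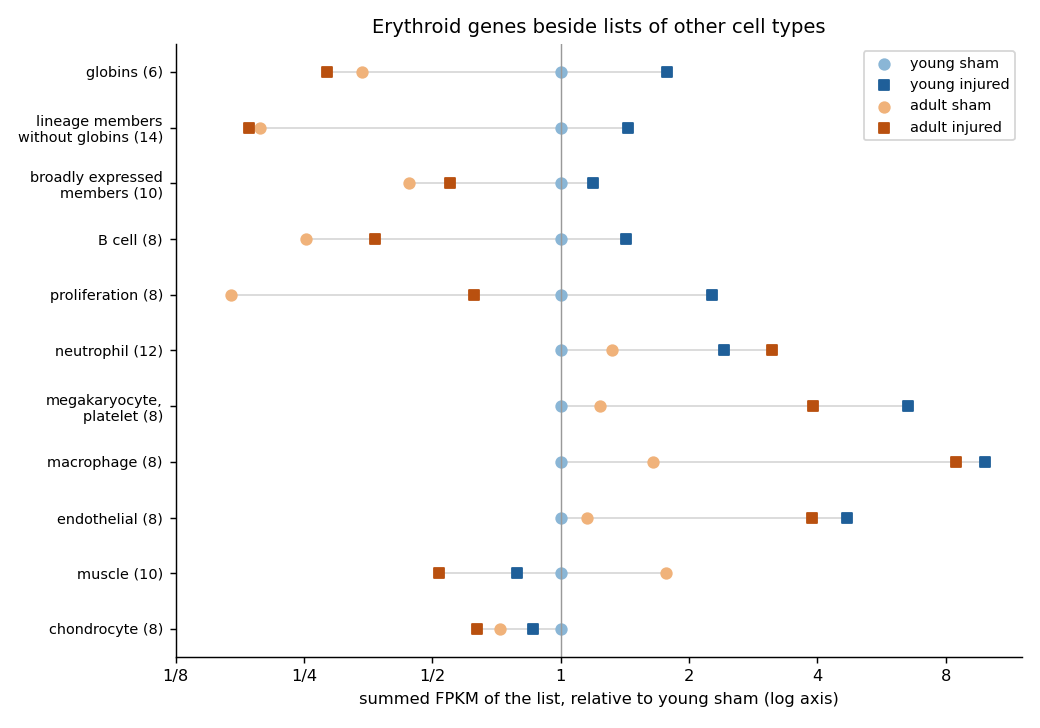
Summed FPKM of each gene list relative to the young sham library, on a log axis, with the number of genes in brackets and 1 point for each library. Both adult points lay left of both young points for the globins, the 14 lineage and the 10 broadly expressed members and the B cell, proliferation and chondrocyte lists, while the macrophage, endothelial, neutrophil and platelet lists had both injured points to the right of the sham points.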

How the data were processed

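Per the labels and the study's methods, total RNA from pooled mouse cartilage was made into stranded poly(A) libraries and sequenced as paired ends. The authors deposited 1 table of FPKM values per gene, 1 column a library, on the mm10 build, and their processing notes list HISAT2 2.1.0, HISAT, StringTie 1.3.4d, STAR and SAMtools, with roles and order not given in the sources used here. FPKM holds no counts, so no count model was used. Members and gene lists were chosen with earlier results of these data known. Groups came from the labels, and all 4 sample columns were used.

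Log2 ratios of FPKM + 1 were taken over the 18181 genes above 0 in at least 1 library, and a gene was called at 2-fold. Globin copies were also summed. With 1 library a group no test was run. Named genes were all 30 members, some further erythroid genes that are not reported here, and the 3 further erythroid and 3 clearance genes with the largest ratio in each injury comparison among those with a mean of at least 1 FPKM. Alternatives were pseudocounts of 0.1 and 5, a minimum of 1 FPKM, rescaling to equal sums with and without globins, median of ratios, quantile normalization, thresholds of 1.5-fold and 3-fold, and changed gene subsets. Gene positions and promoters were from RefSeq on GRCm38.p6, and transcripts from GENCODE were cut into 31-base words. Scripts used Python 3.11.15, numpy 2.4.6 and pandas 2.3.3 and were tested on simulated data.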

Additional observations from a re-analysis of the deposited data

Results flagged for a closer look

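Some members had injury ratios of opposite sign in young and adult cartilage. With 1 library a group the difference between the ages was not tested, and each value below is the log2 ratio in the young minus that in the adult. Hba-a1 gave 3.09 (0.89 in the young, -2.20 in the adult), Hbb-bs 7.96 (2.88 and -5.09) and Hbb-bt 2.25 (0.92 and -1.33), all 3 being globin rows that share sequence with another copy. The sums were less far apart, alpha by 1.36 (0.89 and -0.47) and beta by 0.88 (0.78 and -0.10, the latter 0.10 under quantile normalization). Tfrc went the other way, by -1.90 (-0.38 and 1.51). In all, 18 of the 30 members had opposite signs, against 38.6% of all genes, most of them with both ratios under 2-fold, and 8 of the 18 changed sign at 1 of the ages under another scaling.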

How the results depend on the processing

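Of 156 alternative values of the main counts, medians and sums, 139 stayed within 1.5-fold of the reported value and on the same side of 2-fold, and 17 moved. No value past 2-fold changed sign, but 4 values under it did, all after adult injury. The members' median (reported -0.02) was 0.02 and 0.01 when rescaled to equal sums with and without globins, the beta sum (reported -0.10) 0.10 with quantile normalization, and the gap of precursor over late genes (reported 0.10) -0.06 without Tfrc, Epor, Bpgm and Slc25a37. The count of members past 2-fold after young injury (2) was 1 with a pseudocount of 5, with either rescaling to equal sums, at 3-fold or with globin sums counted once, and 9 at 1.5-fold. After adult injury (5) it was 3 at 3-fold and 1 with globin sums counted once. Between sham libraries (25) it was 12 with a pseudocount of 5 and 13 at 3-fold, and between injured libraries (26) 15 with a pseudocount of 5. The members' median was -1.95 and -0.77 in the sham pair (reported -1.27), and 2.69 and 0.98 in the injured pair (reported 1.85), with pseudocounts of 0.1 and 5. In the sham pair the alpha sum was -0.82 with median of ratios (reported -1.21) and the beta sum -2.43 with quantile normalization (reported -1.81). For single genes, 154 values moved and 1162 did not, and for counts in 1 direction 13 and 67. No paired analysis was possible because each group has 1 library, and for the same reason no replicate could be left out. Calls that rest on values well below 1 FPKM, such as Trim58 in adults, are limited by depth.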
